A study of Mus musculus with 516 samples.

Results

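The 4 serotonin receptor genes Htr1d, Htr1f, Htr3a and Htr5b, were followed through sensory neurons and their neighbours, sequenced 1 cell at a time from dorsal root ganglia, which lie beside the spinal cord of the mouse. They are 4 of the 11251 genes of the table and were taken by symbol, as receptors that sensory neurons are known to carry. A further receptor of the family, Htr4, is in the table. The 516 cells came from 2 mouse strains, C57BL/6, the usual laboratory strain, and CAST/Ei, a wild-derived strain. Each was sampled in a naive state, right after dissociation of the ganglia with no treatment, and in a cultured state that the labels call injured. For the latter the dissociated cells, whose axons are cut by the dissection, grew for 48 h on bare plastic, received ara-C, a drug that kills dividing cells, at 24 h, and were lifted with trypsin. All cells of all 4 groups then passed a mesh and a Percoll layer against myelin debris, and were captured one by one on a microfluidic chip, so only cells that suit the chip were sampled. There were 306 naive and 210 cultured cells, of which 243 were C57BL/6 and 273 CAST/Ei, and the smallest group was cultured CAST/Ei with 99. The labels give no age, sex, animal, culture or capture run. Each group was therefore 1 sample, cells were not used as replicates, and no test between groups was possible.

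Serotonin acts on sensory neurons when it is released by platelets, mast cells and descending nerve fibres, and it can sensitise or quiet them. Htr1d and Htr1f are receptors coupled to inhibitory G proteins, which lower cyclic AMP and transmitter release, and they are the targets of triptans and related drugs against migraine. Htr3a is different in kind: it is a subunit of a cation channel that serotonin opens directly. Htr5b is a less studied G protein coupled receptor that is intact in rodents and disrupted in humans.

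The genes lie on different chromosomes of the mouse build GRCm38 (the same sequence as mm10). In the GENCODE M21 annotation Htr1d spans chr4:136423524-136444398 on the plus strand, and the other members are on the minus strand, Htr1f at chr16:64924729-65105854, Htr3a at chr9:48899213-48911099 and Htr5b at chr1:121509842-121528465. Htr1d and Htr1f each have 1 coding exon, Htr5b has 2 and the channel subunit Htr3a has 9. Upstream sequence from the RefSeq table of GRCm38.p6 matched 2 of the 4 members, Htr1d and Htr1f. It is shown for these 2 because the other members had no entry. The 250 bases before a start of transcription in that table follow, 5′ to 3′ along the gene, at chr4:136423274-136423523 (plus strand) and chr16:65105785-65106034 (minus strand). By the GENCODE span, which begins further upstream, 70 of the Htr1f bases lie inside the gene. The table also lists a second Htr1d start, 1088 bases downstream, whose window is not printed. Capitals mark the letters ATTAAT, the core of the site bound by POU4F factors, which are transcription factors of sensory neurons.
Htr1d: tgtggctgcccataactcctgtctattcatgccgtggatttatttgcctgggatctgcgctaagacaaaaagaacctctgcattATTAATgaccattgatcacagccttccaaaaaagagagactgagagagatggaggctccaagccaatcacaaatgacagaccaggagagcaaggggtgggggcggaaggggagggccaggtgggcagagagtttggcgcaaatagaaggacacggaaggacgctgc
Htr1f: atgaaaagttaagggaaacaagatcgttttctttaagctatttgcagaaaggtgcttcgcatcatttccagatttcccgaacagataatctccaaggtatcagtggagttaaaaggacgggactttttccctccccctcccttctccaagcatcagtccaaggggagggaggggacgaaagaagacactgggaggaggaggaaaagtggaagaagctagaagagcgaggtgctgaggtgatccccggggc
ATTAAT, which reads the same on both strands, occurs once before the printed Htr1d start, upstream of a CCAAT box, and 4.39% of 32851 such windows in the table hold it. That box (letters CCAAT or ATTGG, in 33.85% of windows) lies between ATTAAT and the start site, with no overlap. The letters of a RUNX core (TGTGGT or ACCACA, in 14.05% of windows) were in neither window. The Htr1f window and the window of the second Htr1d start held none of the 3 motifs. The motifs were chosen with the sequences in view, and a match describes letters only.

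The table holds 13932 to 2978345 reads per cell, with a median of 839147. Clustering without the 4 members gave 15 clusters, of which those with neuron markers on top held 370 cells, called neuron-like. They were 272 naive cells (all but 16 of C57BL/6 and 18 of CAST/Ei) and 98 cultured ones (33 of C57BL/6 and 65 of CAST/Ei). All 18 neuron markers, such as Snap25 and Tubb3, had reads in the neuron-like cells of every group. The clusters were named by this same list, so these reads are no separate support for the name. In culture the markers summed to 12198 to 15541 CPM in neuron-like clusters 1 and 5 and to 1034 to 3378 CPM in fibroblast-like and glia-like clusters. Cells that were not neuron-like were glia-like, fibroblast-like or, in naive samples, an unnamed cluster led by endothelial and interferon-induced genes. Levels are reads summed over the cells of a group as counts per 1e6 reads of all genes (CPM), with exact 95% Poisson intervals. Shares of cells carry exact (Clopper-Pearson) 95% intervals. Where no read, or no cell with the gene, was found, the limit given is 3 counts of the total. All of these cover counting error only and not the spread between animals. A cell counted as carrying a gene when it had at least 5 reads of it.

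Naive cells were divided by marker genes of known sensory neuron types, with a cut of 100 CPM. Th marks fine touch fibres of low threshold, Mrgprd marks non-peptidergic pain fibres, Mrgpra3 and Mrgprb4 mark itch and stroking fibres, and Sst and Nppb mark another itch type. Cells with markers of more than 1 of these sets were called mixed. Cells with none of them were divided by Tac1, the substance P gene of peptidergic pain neurons, and then by Nefh, the heavy neurofilament of large myelinated neurons. Such a class is a range of a marker and not a cell type, and in naive CAST/Ei 21 cells had Th between 50 and 200 CPM, against 8 in C57BL/6. In this split, among classes of at least 5 cells, each of the 4 receptors had its highest level in the same class in both strains, Htr1d and Htr5b in Th-high cells, Htr1f in Sst- or Nppb-high cells and Htr3a in Tac1-high cells. For Htr1f and Htr5b the class held under every alternative tried, and for the other two it held in CAST/Ei but not in C57BL/6.

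**Figure D1:**
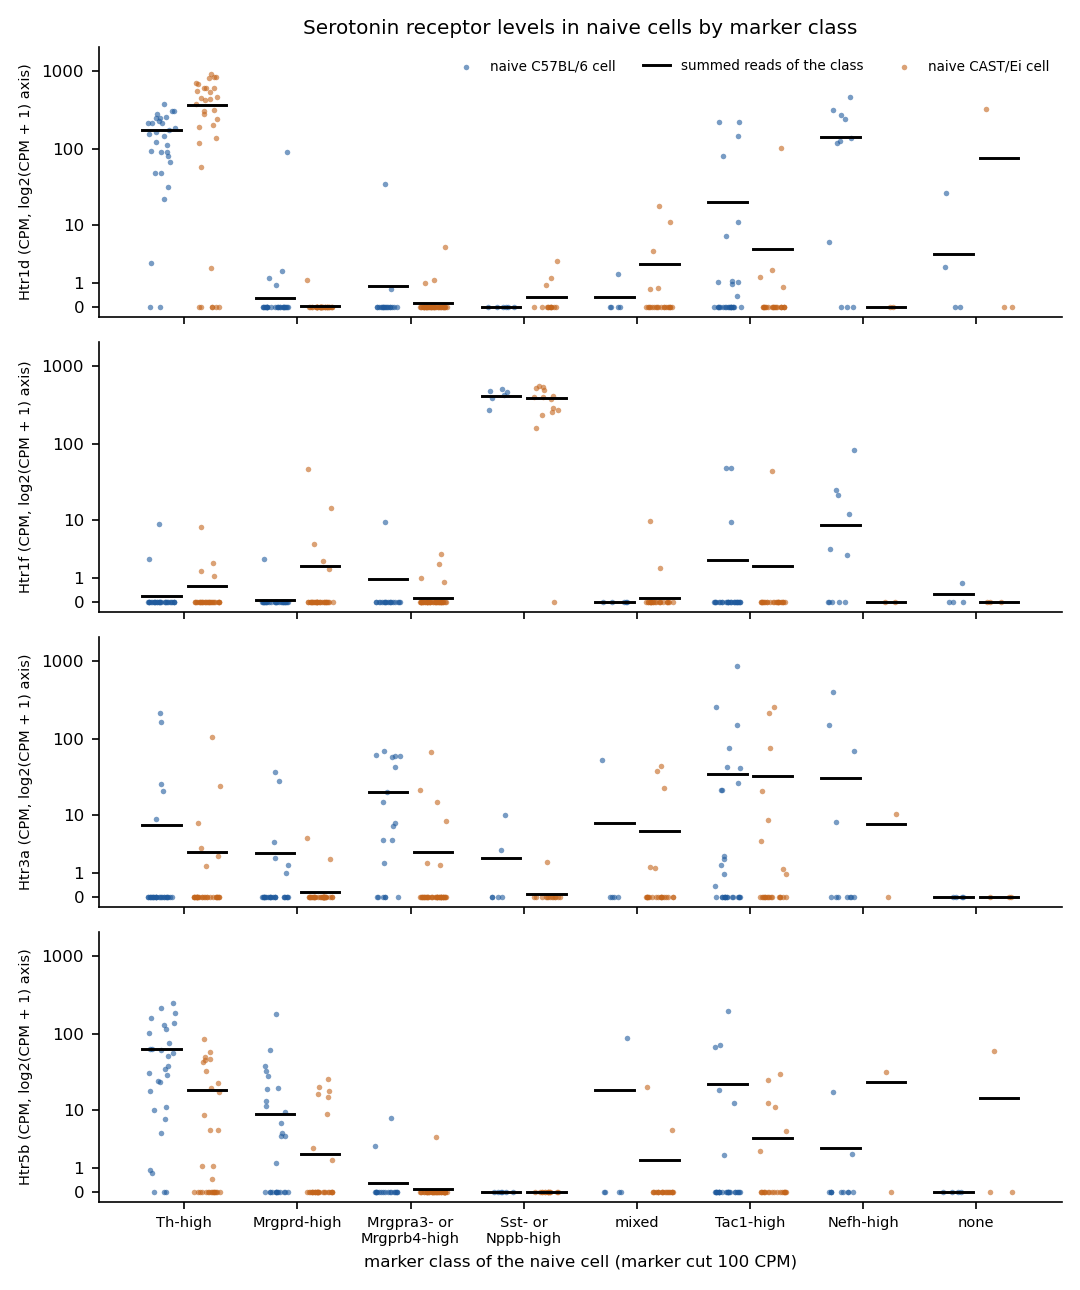
Level of each receptor in every naive cell (points, CPM on a log2(CPM + 1) axis) by marker class and strain, with black bars for the summed reads of a class. Htr1f cells are gathered in the Sst- or Nppb-high class at 413 and 391 CPM, Htr1d and Htr5b are highest in Th-high cells, and Htr3a is scattered over several classes. CAST/Ei has 2 Nefh-high and 3 unclassed cells, too few to lead.

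Htr1d, the triptan target, was at 174.4 CPM (169.1 to 179.8) in the 30 Th-high cells of naive C57BL/6 and at 372 CPM (366 to 378) in the 32 of naive CAST/Ei. Single C57BL/6 cells of the class ran from 0 over a median of 151.5 to 379 CPM, and CAST/Ei cells from 0 over a median of 351 to 916 CPM. The receptor was carried by 26 of 30 and 25 of 32 of these cells, or 86.7% (69.3 to 96.2) and 78.1% (60.03 to 90.7), so most of the class had it while a few cells had no read. By cluster, every cell had a read in the Th-rich clusters 9 (31 naive C57BL/6 cells) and 10 (28 naive CAST/Ei cells). Of these, 28 and 27 carried it, and the lowest cells were at 1.60 and 0.742 CPM. Th-high cells held 97.8% of all naive Htr1d reads in CAST/Ei and 67.8% in C57BL/6. The ratio of the class to all other naive cells was 2.91 in C57BL/6 and 6.71 in CAST/Ei on the log2 scale, where 7.06% and 8.62% of all genes were at least 2-fold higher in the class.

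A second population carried Htr1d in C57BL/6. In the 11 Nefh-high C57BL/6 cells Htr1d was at 142.6 CPM (135.1 to 150.4), with 8 cells carrying it. There 1 cell gave 631 of the 1341 reads, and without it the class was at 88.2 CPM. CAST/Ei had only 2 Nefh-high cells, without a read. Cluster 15, made of 10 naive C57BL/6 cells with Nefh among its leading genes, carried Htr1d in every cell, from 82.7 to 466 CPM, with a sum of 263 CPM (251 to 276). Th was nearly absent there at 3.35 CPM. With a marker cut of 50 CPM the Nefh-high class of C57BL/6 passed the Th-high class, at 191 against 159.1 CPM. In naive neuron-like cells only it did so too, at 181 against 174.4 CPM, and by the mean of the cells' own CPM, at 153.2 against 152.4. The Th-high class led with a cut of 200 CPM, at 175.1 against 169.8 CPM, and without the highest cell of each class, at 158.6 against 88.2 CPM. The non-peptidergic pain class and the itch classes had almost no Htr1d. Mrgprd-high cells were at 0.316 and 0.0361 CPM, Mrgpra3- or Mrgprb4-high cells at 0.874 and 0.147 CPM, and Sst- or Nppb-high cells at 0 and 0.351 CPM in C57BL/6 and CAST/Ei. The 6 C57BL/6 cells of the last class had no read, which allows a level of up to 0.432 CPM. Tac1-high cells were at 20.5 and 4.55 CPM, sums that a few cells carried. Their median cell had no read in either strain, 5 of 29 and 2 of 24 cells carried the gene, and without its highest cell the CAST/Ei class was at 0.321 CPM. The C57BL/6 carriers included cells of cluster 15 at 82.7, 222 and 224 CPM.

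Htr1f, the other inhibitory receptor, was highest by far in the Sst- or Nppb-high class, with lower levels in other cells. The 6 C57BL/6 cells of that class had 276, 390, 428, 469, 476 and 503 CPM, and the sum was 413 CPM (398 to 429). Of the 14 CAST/Ei cells 12 carried it, the highest at 545 CPM, and the sum was 391 CPM (379 to 403). The levels of the strains were close, with a log2 ratio of -0.08, whereas the class markers Sst and Nppb were 2.75-fold and 2.20-fold higher in CAST/Ei. The class held 94.3% of naive Htr1f reads in C57BL/6 and 96.96% in CAST/Ei. It held fewer of the cells, 6 of the 13 naive C57BL/6 cells and 12 of the 16 naive CAST/Ei cells that carried Htr1f. At the cut used here the next was the C57BL/6 Nefh-high class at 8.40 CPM, and the next in CAST/Ei was the Mrgprd-high class at 1.91 CPM. With a marker cut of 50 CPM the mixed class was next, at 58.5 CPM in C57BL/6 and 16.3 CPM in CAST/Ei. In cluster 15, the Nefh-rich C57BL/6 cells with Htr1d, 6 of 10 cells carried Htr1f as well, at 22.7 CPM (19.2 to 26.6), and 1 had no read. Against all other naive cells the class was higher by 7.28 and 7.72 on the log2 scale, where 8.81% and 4.62% of all genes were at least 2-fold higher.

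Htr3a, the channel subunit, was low and scattered over the marker classes. It was highest in Tac1-high cells, at 35.2 CPM (33.02 to 37.4) in C57BL/6 and 33.2 CPM (31.2 to 35.4) in CAST/Ei, but few cells carried these sums. Against all other naive cells the class was higher by 1.59 and 3.29 on the log2 scale, where 10.8% and 9.22% of all genes were at least 2-fold higher. In C57BL/6 9 of 29 Tac1-high cells had the gene, and 1 cell at 856 CPM gave 441 of the 1001 reads. In CAST/Ei 6 of 24 had it, and 1 cell gave 670 of 972 reads. Without the highest cell of each class the C57BL/6 Tac1-high class was at 20.03 CPM, below the Nefh-high class at 26.4 CPM, and the CAST/Ei class stood at 11.3 CPM. More evenly spread in C57BL/6 was the Mrgpra3- or Mrgprb4-high class, in which 8 of 19 cells carried Htr3a and the highest was at 70.4 CPM, with a sum of 20.5 CPM (18.4 to 22.8). The same class in CAST/Ei was at 2.79 CPM, with 4 of 42 cells. By cluster the gene was less scattered in C57BL/6. In cluster 4, with Tac1 and Trpv1 among its leading genes, 12 of 23 naive C57BL/6 cells carried Htr3a. Their sum was 54.5 CPM (51.4 to 57.7), the median cell was at 21.7 CPM, and without the highest cell the sum was 34.7 CPM. Of the 28 naive CAST/Ei cells of cluster 4, 7 carried it, at 32.4 CPM, and the median cell had no read.

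Htr5b was highest in the same class as Htr1d, the Th-high cells, but at a lower level and with the strains in the opposite order. It was at 64.4 CPM (61.2 to 67.7) in the Th-high cells of C57BL/6, with cells from 0 over a median of 37.1 to 248 CPM. In CAST/Ei it was at 18.7 CPM (17.4 to 20.1), with cells from 0 over a median of 0.23 to 86.8 CPM. The gene was carried by 23 of 30 C57BL/6 and 13 of 32 CAST/Ei cells of the class. A second, weaker site in C57BL/6 was the Mrgprd-high class, at 8.74 CPM with 9 of 28 cells. The Tac1-high class of C57BL/6 stood at 22.8 CPM, but 1 cell gave 496 of its 649 reads. Sst- or Nppb-high cells of both strains had no Htr5b read in 6 and 14 cells.

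Within Th-high cells Htr1d was thus 2.13-fold higher in CAST/Ei than in C57BL/6 (log2 ratio 1.09) and Htr5b 3.43-fold lower (log2 ratio -1.73), while Th itself differed little (log2 ratio -0.25). Of all genes in this class, 16.3% stood 2-fold or more above C57BL/6 in CAST/Ei and 8.33% below. Both receptors were in 22 of 30 C57BL/6 Th-high cells, which is 84.6% of the Htr1d cells and 95.7% of the Htr5b cells of that class. Of all its cells 76.7% had Htr5b and 86.7% had Htr1d. In CAST/Ei 11 of 32 cells had both, 44% of the Htr1d cells and 84.6% of the Htr5b cells, where 40.6% and 78.1% of all cells of the class had Htr5b and Htr1d. The overlap was thus only a little above the shares of the class as a whole. The median depth of the class was 654180 reads per cell in C57BL/6 and 1150958 in CAST/Ei. With 200000 reads drawn per cell, Htr5b was carried by 18 of 29 C57BL/6 and 7 of 31 CAST/Ei cells of the class. The cause of the strain difference was not tested.

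**Figure D2:**
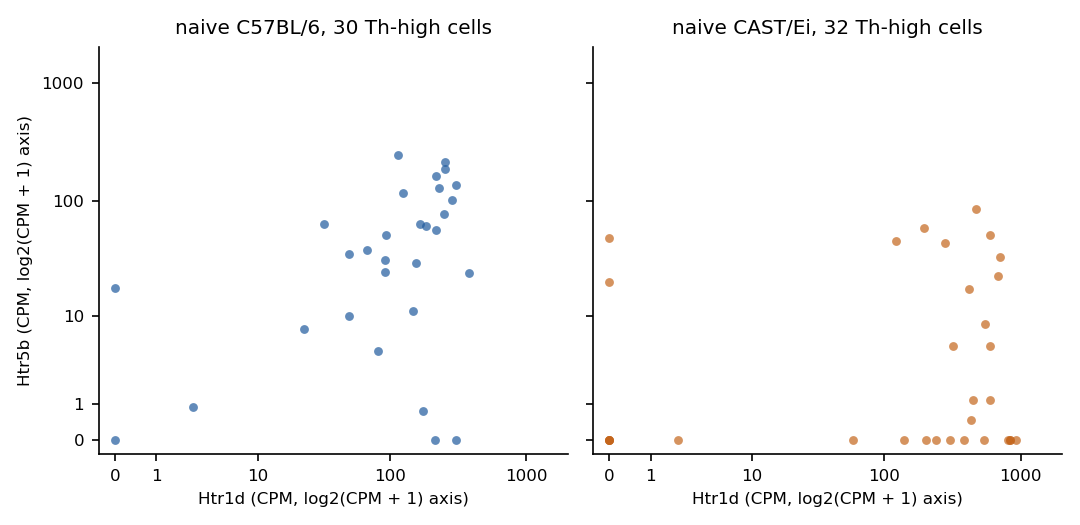
Htr1d against Htr5b in single Th-high naive cells of C57BL/6 (30 cells, left) and CAST/Ei (32 cells, right), both axes in CPM on a log2(CPM + 1) scale and each point 1 cell. Most C57BL/6 cells have both receptors, while many CAST/Ei cells sit on the lower edge with Htr1d of over 100 CPM and no Htr5b.

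Levels of different genes can be set side by side only per length of transcript. Per kilobase of the main transcript, the leading class of Htr1f had 160.2 CPM in C57BL/6 and 151.6 CPM in CAST/Ei, that of Htr1d 60.04 and 128.04 CPM, that of Htr5b 33.3 and 9.69 CPM and that of Htr3a 16.9 and 15.97 CPM. The order Htr1f, Htr1d, then the other two was the same in both strains, and Htr3a and Htr5b changed places. Bowtie2, the aligner named for these data, does not join reads across introns, and Htr3a has 9 coding exons against 1 in Htr1d and Htr1f. These values were not corrected for that.

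Genes with the most similar pattern were ranked by the lower of the 2 strains' Pearson correlations over the 272 naive neuron-like cells, each strain by itself, among 9498 genes. These values describe cells that share their library and depth with every gene compared. Closest to Htr1d was Cckar, a receptor for cholecystokinin (r = 0.82 and 0.84), followed by the cadherin Fat3, the calcium pump Atp2b2, Stac2 and the synaptic scaffold Shank1. Closest to Htr1f was Nppb, the itch peptide (0.79 and 0.82), and then the phosphatase Ptprk, the peptide Sst, the leukotriene receptor Cysltr2 and neurotensin (Nts). Htr5b was most like the calcium channel Cacna1h (0.50 and 0.50), with Cdh10, Adamts3, Fat3 and the transporter subunit Slc51a next. Htr3a had 1 gene above the limit of 0.4 in both strains, the vesicle protein Rab3b (0.43 and 0.42).

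After culture 3 of the 4 receptors were at least 2-fold lower in the neuron-like cells of each strain. In C57BL/6 they were Htr1d, Htr3a and Htr5b, where 24.7% of all genes were lower by as much and 20.4% higher. In CAST/Ei they were Htr1f, Htr3a and Htr5b, where 22.4% of all genes were lower and 23% higher. The median log2 ratio of the 4 members was -2.71 and -2.32, against -0.17 and 0.02 for all genes. The comparisons of this and the next paragraphs share groups, so they are not independent of each other. Cultured neuron-like cells fell almost entirely in other clusters (1 and 5) than naive ones, and at the marker cut 16 of 33 C57BL/6 and 44 of 65 CAST/Ei cells had no class marker, so naive classes could not be followed into culture. Markers of glia moved with culture in these cells, 12 of 17 at least 2-fold higher in C57BL/6 and 10 of 17 in CAST/Ei. The median log2 ratio of the list was 1.69 and 1.67. Their sums went from 3741 to 3978 CPM and from 2810 to 3652 CPM. Pmp22 and Apoe, the highest of the list in naive cells, were lower in culture. In cultured CAST/Ei the glial gene Sox10 was at 67.2 and 168.5 CPM in neuron-like clusters 1 and 5, against 204.5 CPM in glia-like cluster 12. In cultured C57BL/6 it was at 79.9 and 18.3 CPM in clusters 1 and 5, against 202.3 CPM in glia-like cluster 8. Fibroblast markers moved with culture too, 9 and 10 of 11 at least 2-fold higher, with sums of 417 to 1500 CPM and 493 to 2366 CPM. No marker of the glia or fibroblast list was at 0 in any group. Their part in the receptor values was not tested, beyond leaving out the tenth of cells highest in glial markers, which kept the direction of each receptor.

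**Figure D3:**
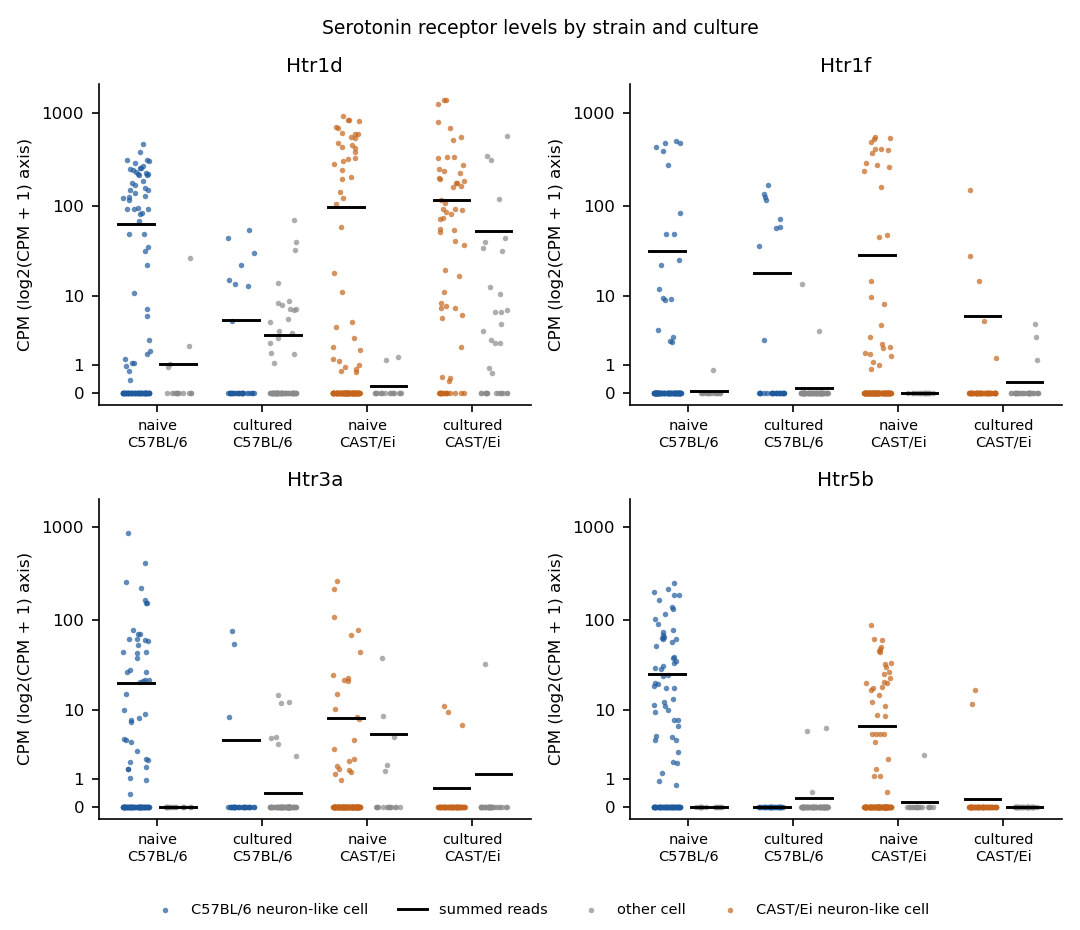
Level of each receptor in every cell of the 4 groups (CPM on a log2(CPM + 1) axis), with neuron-like cells in the colour of their strain, other cells in grey and black bars for summed reads. Htr3a and Htr5b are found in a few cultured cells of either strain, and Htr1d is high in cultured CAST/Ei cells but not in cultured C57BL/6 cells.

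Htr5b was close to absent after culture. In naive C57BL/6 neuron-like cells it was at 25.6 CPM (24.6 to 26.7), and the 33 cultured ones had no read, which is at least 144.3-fold lower when 3 reads are taken as the limit of the cultured sum. In CAST/Ei it went from 6.36 CPM (5.97 to 6.76) to 0.237 CPM (0.135 to 0.385), a log2 ratio of -2.57. At a common depth of 200000 reads 23.9% of naive C57BL/6 neuron-like cells carried it (unthinned 33.6%), and 0 of 26 cultured cells did, which allows a share of up to 11.5%. In CAST/Ei 6.08% of naive cells carried it (unthinned 16.03%) and 0 of 58 cultured ones (unthinned 1.54%).

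Htr3a went from 20.2 CPM (19.3 to 21.1) to 4.27 CPM (3.34 to 5.37) in C57BL/6 and from 7.90 CPM (7.47 to 8.35) to 0.607 CPM (0.436 to 0.823) in CAST/Ei, log2 ratios of -2.01 and -2.47. Single cells weighed on these sums. Of the 72 reads in cultured C57BL/6 neuron-like cells, 57 came from 1 cell, and of the 1257 in naive CAST/Ei ones 670 did. Without the highest cell those levels were 0.93 and 3.75 CPM, and with the highest cell of each group left out the ratios were -3.11 and -1.85. Thinned shares were 20.2% and 3.85% of naive and cultured C57BL/6 cells (unthinned 25.9% and 9.09%), and 4.73% and 0% of CAST/Ei cells (unthinned 9.62% and 4.62%). The channel subunit was thus rare in both cultures.

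Htr1f was lower in culture in CAST/Ei. In C57BL/6 the ratio ran from close to 0 to over 2-fold lower, depending on the cells counted and their weighting. In C57BL/6 it was at 32.1 CPM (31.003 to 33.3) in naive and 18.5 CPM (16.5 to 20.7) in cultured neuron-like cells, a log2 ratio of -0.76 that did not reach 2-fold. It passed 2-fold over all cells (-2.71) and with neuron-like cells named by each cell's own markers (-1.31). So it did without the tenth of cells highest in glial markers (-1.20) and with cultured cells of cluster 5 only (-2.66). The share of all genes lower by as much under these settings is not given here. The share of cells with the gene was 8.26% in naive and 23.1% (8.97 to 43.6) in cultured cells after thinning, and 11.2% and 21.2% unthinned. All 8 cultured C57BL/6 cells with Htr1f also had Sst or Nppb, which 20.7% of all cultured C57BL/6 cells had. In CAST/Ei it was at 28.9 CPM (28.1 to 29.8) in naive and 5.67 CPM (5.12 to 6.27) in cultured cells, a log2 ratio of -2.16, and the thinned share went from 9.46% to 3.45% (unthinned 10.3% and 4.62%). There 1 cultured cell gave 347 of 383 reads, and without the highest cell of each group the ratio was -4.15. Of the 4 cultured CAST/Ei cells with Htr1f 1 had Sst or Nppb, against 13 of all 99. The CAST/Ei ratio was the lower one in neuron-like cells. Over all cells the ratios were -2.71 and -2.61, and with cluster 5 only they were -2.66 and -1.63, in the opposite order. In cluster 5 of CAST/Ei 1 cell gave 347 of the 351 reads, and without it the level was 0.105 CPM.

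Htr1d was far lower in culture in C57BL/6 and at a similar summed level in CAST/Ei. In C57BL/6 it went from 64.2 CPM (62.6 to 65.8) in naive to 5.10 CPM (4.08 to 6.29) in cultured neuron-like cells, a log2 ratio of -3.42. Only 8 of the 33 cultured cells had any read, and the highest was at 54.6 CPM. In CAST/Ei the level was 97.2 CPM (95.7 to 98.8) in naive and 115.3 CPM (112.7 to 117.8) in cultured cells, a log2 ratio of 0.24. The ratio was 0.03 over all cells, 0.02 without the highest cell of each group and -0.23 with cultured cells of cluster 5 only. With those of cluster 1 only it was 0.86, and by the mean of the cells' own CPM it was 1.10, which passed 2-fold. Behind this similar sum, the share of CAST/Ei neuron-like cells with Htr1d was 17.6% (11.8 to 24.7) in naive and 56.9% (43.2 to 69.8) in cultured cells at the common depth (unthinned 19.2% and 63.1%). The median cell had 0 CPM in naive and 52.6 CPM in cultured CAST/Ei, so more cells carried it.

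Th was rare in cultured CAST/Ei cells, with or without Htr1d. Among naive CAST/Ei cells 28 of 30 with Htr1d also had Th, and among naive C57BL/6 cells 29 of 41. Among cultured CAST/Ei cells 8 of 56 did. Over all CAST/Ei cells Th was in 61.5% of naive and 13.1% of cultured cells, so the share among Htr1d cells in culture was close to that of all cells. Cckar, the gene most like Htr1d in naive cells, was in 27 of the 30 naive and 12 of the 56 cultured CAST/Ei cells with Htr1d. In all 13 of the 99 cultured CAST/Ei cells had Cckar, so 12 of those 13 carried Htr1d. The Cckar level went from 27.05 to 8.48 CPM in neuron-like cells. Fat3, Atp2b2 and Shank1 were lower in culture in CAST/Ei as well, with log2 ratios of -1.05, -2.84 and -0.98, and Stac2 was at 6.15 and 9.89 CPM.

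By cluster, Htr1d was at 177 CPM (171.9 to 183) in the 32 cultured CAST/Ei cells of cluster 1, where 27 carried it and which is led by the injury-induced genes Sprr1a, Sox11 and Gal. In the 31 CAST/Ei cells of cluster 5 it was at 82.996 CPM (80.2 to 85.9), with 13 carrying it. There 1 cell gave 1462 of the 3357 reads, the median cell was at 0.50 CPM, and without that cell the sum was 48.1 CPM. The C57BL/6 cells of the same clusters were at 9.05 CPM (7.24 to 11.2) in 22 cells and had no read in 10 cells. With cluster 5 as the only cultured cells, the CAST/Ei log2 ratio turned to -0.23, and with cluster 1 only it was 0.86. Htr1d also appeared outside neuron-like cells in this group: the 24 glia-like CAST/Ei cells of cluster 12 were at 71.6 CPM (68.7 to 74.5), with 9 carrying it and 1 cell at 567 CPM. The summed neuron markers were at 3378 CPM in that cluster and at 12198 CPM in cluster 1, and whether neuronal RNA gave the Htr1d reads there was not tested. Fibroblast-like CAST/Ei cells were at 6.09 CPM and glia-like C57BL/6 cells at 1.35 CPM. Pooled over all cells that were not neuron-like, Htr1d was carried at the common depth in 25% of cultured CAST/Ei (unthinned 44.1%) and 5.63% of cultured C57BL/6 cells (unthinned 12.8%), and median depths of these cells were 1503436 and 864746 reads.

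**Figure D4:**
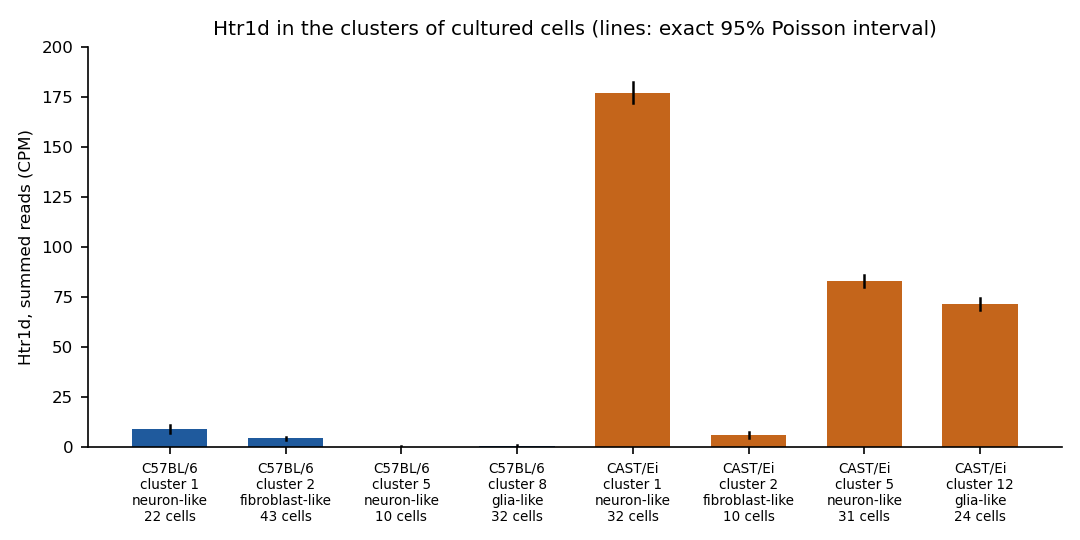
Htr1d in clusters of cultured cells with at least 10 cells, as CPM of summed reads (bars) with the exact 95% Poisson interval (lines). CAST/Ei clusters 1, 5 and 12 reach 71.6 to 177 CPM, and no C57BL/6 cluster exceeds 9.05 CPM.

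Between the strains, 2 of the 4 receptors were lower by 2-fold or more in naive CAST/Ei than in naive C57BL/6 neuron-like cells and 0 higher, where 6.2% of all genes were lower and 7.23% higher. They were Htr3a, with a log2 ratio of -1.25, and Htr5b, with -1.86. Htr1d was 1.51-fold higher in CAST/Ei (0.59) and Htr1f close to equal (-0.15). In cultured cells Htr1d was 22.6-fold higher in CAST/Ei (log2 ratio 4.25), above 99.8% of all genes, while Htr1f (-1.55) and Htr3a (-1.71) were at least 2-fold lower. There 22.2% of all genes passed 2-fold upwards and 13.7% downwards. Both lower levels rested on which cells were counted. For Htr1f the ratio was 0.05 over all cultured cells and 0.88 in cluster 5 only. For Htr3a it was -0.15 over all cultured cells, -0.19 in cluster 1 only and -0.55 without the highest cell of each group.

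**Figure D5:**
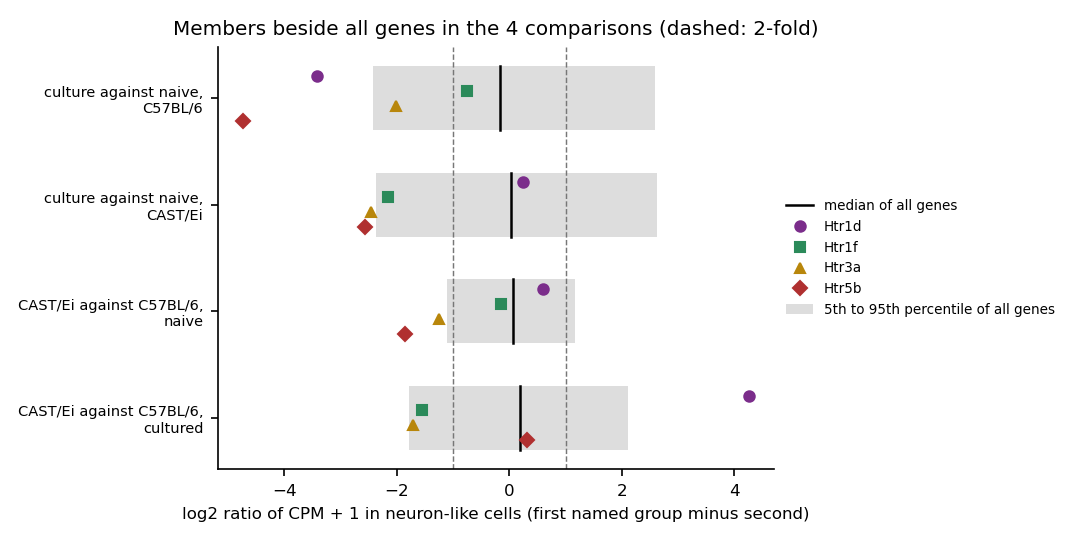
Log2 ratio of CPM + 1 of each receptor in the 4 comparisons of neuron-like cells (symbols), beside the 5th to 95th percentile (grey bar) and median (black line) of all 11251 genes, with dashed lines at 2-fold. Htr1d stands at 4.25 between the cultured strains. The Htr5b value of -4.74 in C57BL/6 culture rests on 0 cultured reads and is set by the added 1 CPM.

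Of 17 other genes of serotonin signalling, 3 were in the table. Htr4, a receptor that raises cyclic AMP, was at 9.59 CPM in naive and 0 CPM in cultured C57BL/6 neuron-like cells and at 10.2 and 0.548 CPM in CAST/Ei. The vesicle transporter Slc18a2 (66.4 and 57.6 CPM in C57BL/6, 91.01 and 76.8 CPM in CAST/Ei) and the serotonin-degrading enzyme Maoa (109.8 and 72.05 CPM, 113.9 and 72.2 CPM) stayed within 2-fold. So Htr4 alone of the 3 was at least 2-fold lower, in both strains, where 24.7% of all genes were in C57BL/6 and 22.4% in CAST/Ei.

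Partners through which inhibitory receptors act, such as G protein subunits, adenylyl cyclases and regulators of G proteins, had 26 of 32 listed genes in the table. In C57BL/6 culture 8 of the 26 were lower by 2-fold or more and 2 higher, and in CAST/Ei 10 lower and 3 higher, with median log2 ratios of -0.29 and -0.62 against -0.17 and 0.02 for all genes. Of all genes 24.7% were lower and 20.4% higher in C57BL/6, and 22.4% lower and 23% higher in CAST/Ei. The regulator Rgs10 (-3.80 in C57BL/6 and -2.42 in CAST/Ei) and the cyclases Adcy1 (-3.07 and -2.83) and Adcy5 (-2.89 and -2.12) were lower in both. The arrestin Arrb1, which uncouples activated receptors, was 2.71 higher on the log2 scale in CAST/Ei and 0.95 in C57BL/6. Gnai1, an inhibitory subunit, was at 43.2 and 12.7 CPM in naive and cultured C57BL/6, and at 69.5 and 132.4 CPM in CAST/Ei, so its ratio had opposite signs in the strains. In cultured cells of the 2 strains 5 partners were at least 2-fold higher in CAST/Ei and 6 lower, where 22.2% of all genes were higher and 13.7% lower. Gnai1 had the highest ratio, 3.29, and the cyclase Adcy2 the lowest, -3.25.

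Peptides and channels of pain neurons, which triptan receptors are known to restrain, were followed for context. In culture 5 of 6 were at least 2-fold lower in both strains, where 24.7% of all genes were in C57BL/6 and 22.4% in CAST/Ei, among them the CGRP gene Calca (-2.36 in C57BL/6 and -2.37 in CAST/Ei) and Tac1 (-4.65 and -4.57). The PACAP gene Adcyap1 was higher in both, by 2.52 and 2.77. The capsaicin channel Trpv1 stood at 2.25 CPM in cultured C57BL/6 and 21.2 CPM in cultured CAST/Ei.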

How the data were processed

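Single cells of dorsal root ganglia were read by polyA RNA sequencing on an Illumina instrument, without molecular identifiers, per the labels' protocols. The deposited table holds the authors' raw counts of reads for 11251 genes in 516 cells, and every column was matched to a sample by title. Bowtie2, SAMtools and mm10 are named per the submitters' processing notes. The counter, its use of strand, the annotation and filters remain not given in the sources used here. Each gene has a read in at least 60 cells, so genes of fewer cells were not analysed here. Reads of CAST/Ei cells were set against a C57BL/6-derived genome, which can lower counts where the strains differ in sequence, and Bowtie2 does not join reads across introns.

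Counts were scaled to CPM. Cells were clustered (leidenalg 0.10.2, 2000 variable genes, 20 components, 15 neighbours, resolution 1) with the members left out, and a cluster was named by its highest marker list unless its 10 leading genes held more markers of another class. Clusters 5 and 8 had no marker of their class among those 10 genes, and the fibroblast-like cluster 2 had 1 of its own and 1 of another. No doublet caller was run. Neuron-like cells highest in glial markers were left out as an alternative. Between groups the log2 ratio of CPM + 1 was taken, and a gene counted as higher or lower at 2-fold. There was 1 sample per group, so no p-value was computed. Thinned shares drew 200000 reads per cell and left out 42 shallower cells, 29 of them neuron-like (7, 7, 8 and 7 in naive and cultured C57BL/6 and naive and cultured CAST/Ei). The ratio was also computed on simulated Poisson counts with known folds, which hold counting error only and no spread between cells or animals. Alternatives changed scaling, pseudocount, weighting of cells, cell choice, depth, marker cut and detection. The members, lists and alternatives were chosen with earlier results of these data known. Named were the members, up to 5 genes most like each (r of at least 0.4 in both strains, at least 5 CPM), the other serotonin genes in the table, up to 4 signalling partners per comparison with the largest ratios, a fixed list of pain genes and class markers. Gnai1 in the culture comparisons and Arrb1 in C57BL/6 were named after their values were seen.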

Additional observations from a re-analysis of the deposited data

Results flagged for a closer look

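The culture response of Htr1d differed between the 2 strains, with a log2 ratio of -3.42 in C57BL/6 and 0.24 in CAST/Ei, which is a difference of 3.66. The CAST/Ei ratio moved with the setting. It was 0.03 over all cells and 0.02 without the highest cell of each group. It was 0.86 with cultured cells of cluster 1 only and 1.10 by the mean of the cells' own CPM. With 1 sample per group this difference was not tested. It ranged from 2.52 with 10 CPM added to 5.80 with cultured cells of cluster 5 only, and in the latter case the CAST/Ei ratio was -0.23, so both strains then had a negative sign.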

How the results depend on the processing

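Of 183 ratios recomputed under alternative settings, 177 kept the sign of the reported value. Among reported ratios of at least 2-fold, 2 changed sign, both for Htr1f in cultured CAST/Ei against cultured C57BL/6 (-1.55). They were 0.05 over all cells and 0.88 with cells of cluster 5 only, where 1 CAST/Ei cell gave 347 of 351 reads. Taking cluster 5 only was a choice made after seeing the data, as was that of cluster 1 only. With 10 CPM added in place of 1, the number of receptors at least 2-fold apart went from 3 to 1 in cultured strains, from 2 to 1 in naive strains and from 3 to 1 in CAST/Ei culture, where the added value is close to the levels themselves. Over all cells it was 1 in cultured strains. The number of receptors with the same leading class in both strains went from 4 to 2 with a marker cut of 50 CPM and to 2 with the mean of the cells' own CPM, where Nefh-high cells led for Htr1d and Htr3a in C57BL/6. With that mean the Htr1d ratio of CAST/Ei culture was 1.10. The share of cells was lower in culture in 6 of 8 pairs of receptor and strain under each detection rule tried. Scaling by the median of ratios moved the median of all genes from -0.17 to -0.02 in C57BL/6 culture and from 0.19 to -0.03 between cultured strains, and turned no receptor. Naming neuron-like cells by each cell's own markers gave 365 in place of 370. Depth limits the cultured C57BL/6 neuron-like sum most, where a gene without a read could be at up to 0.178 CPM, the level of 3 reads. In C57BL/6 culture 3 receptors were at least 2-fold lower, where 24.7% of all genes were. Under 4 of the alternatives Htr1f was too, and the share of all genes under those is not given here. No paired analysis was possible because the numbers in the titles only count cells within a group and no test was made.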
